A study of Mus musculus with 76 samples.

Results

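Control neural cultures of 2 mouse strains were compared after their axons had been cut. The cultures were grown from embryonic stem cells of C57BL/6J (B6), the standard laboratory strain, and WSB/EiJ (WSB), an inbred strain derived from wild mice. The members were the 9 sequenced samples, or 8 libraries once repeat runs were summed, that the labels give as cut controls of the axon stage. They were 8 of 70 libraries in the series and held 4 libraries a strain. All 8 received the control treatment, not ID-8, the inhibitor of the kinase DYRK1A that the study also used, and polyadenylated RNA of the whole culture was sequenced. The same cultures without a cut gave another 8 libraries (4 a strain), which served to ask whether a strain difference depended on the cut. The labels do not say how many embryonic stem cell lines stood for a strain, so strain and line cannot be told apart, and the time between cut and collection is not given in the sources used here. WSB replicates 1 to 4 and B6 replicates 1 to 4 each came from a culture set of their own, with 1 cut and 1 uncut culture a set.

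When an axon is cut, the neuron sends stress signals back to its cell body through kinases such as DLK and JNK, and transcription factors including JUN, ATF3 and SOX11 switch on growth genes or, where injury is not tolerated, cell death genes such as the p53 target Bbc3. Glia and infiltrating cells answer with cytokines, chemokines, complement and interferon-stimulated genes, and astrocytes release matrix molecules that favour or block regrowth.

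The cut libraries held 21285689 to 99188631 counts and 19045 to 20537 detected genes. The first principal component (48.7% of the variance) separated the strains. WSB replicate 1 stood apart from the other 3 WSB libraries on the second (22.3%), with the least Gfap and the highest summed pan-neuronal markers of all 8 libraries. WSB replicate 4 belonged to a later library block and alone carried much Sox10, at 47.29 counts per 1000000 (CPM) against at most 0.54 in the other 7. Counts are therefore also given without each of these. B6 replicates 3 and 4 lay close together on both components. They differed by a chi-square per degree of freedom of 15.66, the smallest of any replicate pair within a strain. The next smallest was 62.26, for B6 replicates 1 and 2. Whether B6 replicates 3 and 4 are independent was not tested. Xist was at or below 1.05 CPM and the Y-linked Eif2s3y at or above 11.51 CPM in all 8 cut libraries.

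The summed level of 12 astrocyte markers was 2796, 3257, 1982 and 1949 CPM in B6 replicates 1 to 4, and 2091, 18001, 12711 and 15038 CPM in WSB replicates 1 to 4. WSB replicate 1 lay within the B6 range, and the other 3 WSB libraries lay above every B6 library. Pan-neuronal markers summed to 5642 to 10474 CPM in B6 and 3529 to 10538 CPM in WSB, and the groups overlapped. Fibroblast and meningeal markers summed to 3229 to 8445 CPM in B6 and 243 to 3838 CPM in WSB, with WSB replicate 1 lowest, and these groups overlapped too. Pan-neuronal and astrocyte markers were both present in every library. In RNA of whole cultures, fewer cells of a type and less RNA per cell cannot be told apart.

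**Figure D1:**
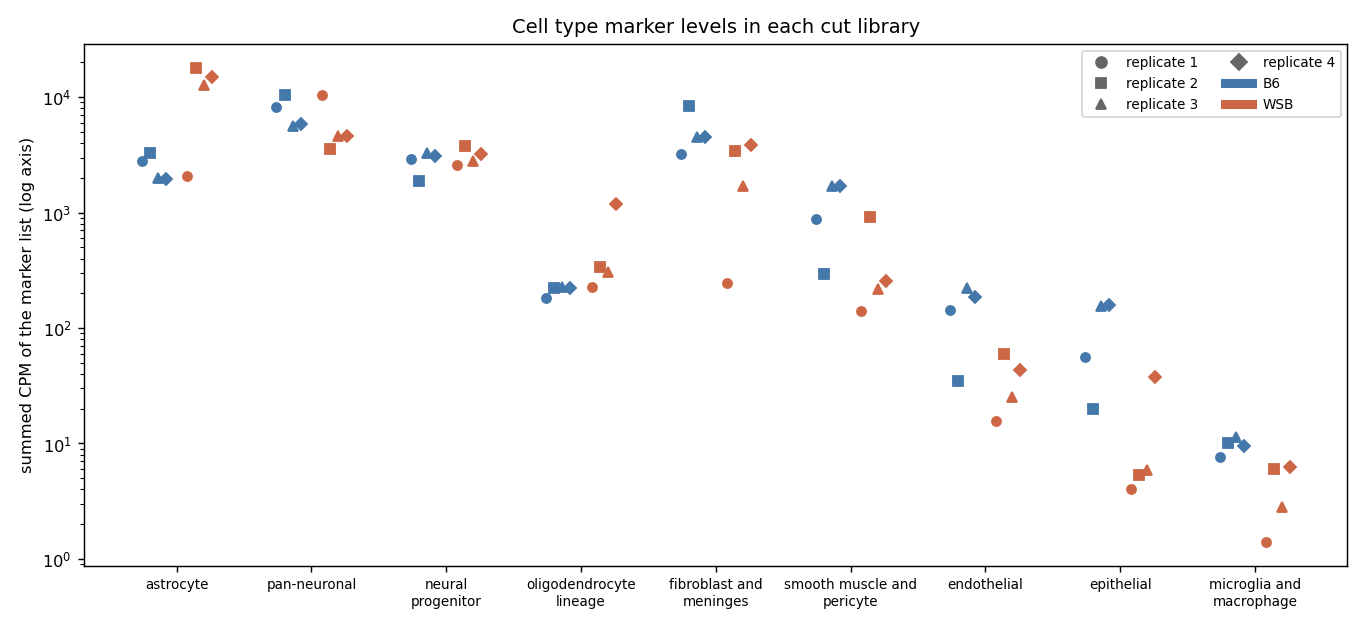
Summed CPM of 9 cell type marker lists in each of the 8 cut libraries, on a log axis, with a symbol for each replicate and a colour for each strain. The astrocyte sum of WSB replicate 1 (2091 CPM) sits with the B6 libraries, while WSB replicates 2 to 4 reach 12711 to 18001 CPM.

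The strains differed at many genes. Of 16117 genes tested with the quasi-likelihood test of edgeR, 486 were higher and 560 lower in WSB at an adjusted p under 0.05, which is 6.49% in both directions, 3.02% higher and 3.47% lower. The median log2 difference over all genes tested was -0.04. Counts depended on single libraries. Without WSB replicate 1 there were 1257 higher (7.67%) and 731 lower (4.46%), or 12.1% in all. Without B6 replicate 1 there were 260 and 333, without B6 replicate 3 231 and 246, without B6 replicate 4 229 and 241, and without WSB replicate 3 264 and 267. Without WSB replicate 4, the later library block, there were 409 (2.49%) and 516 (3.14%), or 5.63% in all. Of the called genes that were followed by name or as list members, the call was lost for 55 without B6 replicate 3, 54 without B6 replicate 4, 50 without WSB replicate 3, 42 without B6 replicate 1, 35 without WSB replicate 4, 30 without WSB replicate 2, 23 without B6 replicate 2 and 8 without WSB replicate 1. Genes described below as keeping their call did so in all 8 of these fits. No fit left out both B6 replicates 3 and 4, which were much alike.

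Many of the largest differences lay in genes that share transcript sequence with other genes. Of the genes tested, 6028 shared no 50-base stretch with another gene, and 337 of these (5.59%) were called, 1.97% as higher and 3.62% as lower in WSB. Of the 9905 genes that share sequence 696 (7.03%) were called, 359 (3.62%) as higher and 337 (3.4%) as lower. How reads with WSB variants aligned to the B6-based build is not given in the sources used here, so a lower count and a lost read cannot be told apart for any single gene. Ptma, which encodes the chromatin protein prothymosin alpha, read 588, 560.08, 682.05 and 705.14 CPM in B6 and 67.24, 65.12, 70.2 and 76.59 CPM in WSB. Ncoa4, a receptor that delivers ferritin for breakdown, read 158.12 to 196.52 CPM in B6 and 28.4 to 31.21 CPM in WSB. Summed with Gm6768, which shares sequence with it, the mean was 181.3 ± 18.8 (SD, n = 4) in B6 and 158.8 ± 32.2 in WSB. These sums, and the levels set beside them in this and the next paragraph, are counts divided by the library total and given as CPM, without TMM factors. The values of Ptma and Wdfy1 given for single libraries are instead scaled with TMM factors. The DNA repair enzyme Tdg was likewise 102.4 ± 8.41 in B6 and 12.78 ± 2.37 in WSB on that scale, but 105.8 ± 8.11 and 104.5 ± 17.9 when summed with 4 genes that share sequence with it. Nup35, a nuclear pore protein, gave 31.13 ± 3.52 and 32.65 ± 8.14 when summed with Gm4353, against 31.08 ± 3.5 and 1.854 ± 0.525 alone.

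In the other direction, Tpm3-rs7 read 0.65 to 0.91 in B6 and 73.24 to 137.95 in WSB, while its sum with the tropomyosin gene Tpm3 was 274.2 ± 49.1 in B6 and 207.8 ± 38.1 in WSB. Rpl3-ps2 was at most 0.34 in each B6 library and at least 80.52 in each WSB library, and the sum over it and 4 genes of shared sequence was 645.7 ± 165 and 592.5 ± 81.7. Rps2-ps10 and Rps15a-ps7, copies of ribosomal protein genes, also passed the test with at most 0.39 and 0.04 in any B6 library. The sum over Rps2-ps10 and its partners, 20 genes in all, was 718.1 to 986.13 in B6 and 334.55 to 1132.08 in WSB. The sum of Rps15a-ps7 and Rps15a was 252 ± 62.2 and 153.2 ± 47.4. Ptma and the zinc finger gene Zfp738 were lower in WSB also as sums, at 660.8 ± 112 in B6 against 94.74 ± 27.9 in WSB and 65.43 ± 10 against 42.47 ± 7.69. Wdfy1, an endosomal protein that shares only 1.658% of its sequence, read 15.37, 15.16, 11.15 and 12.7 CPM in B6 and 113.27, 101.88, 108.56 and 84.34 CPM in WSB (log2 difference 2.91 ± 0.18 (SE), adjusted p = 6.55e-05 with edgeR). The values of all other genes named below are for the gene alone.

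**Figure D2:**
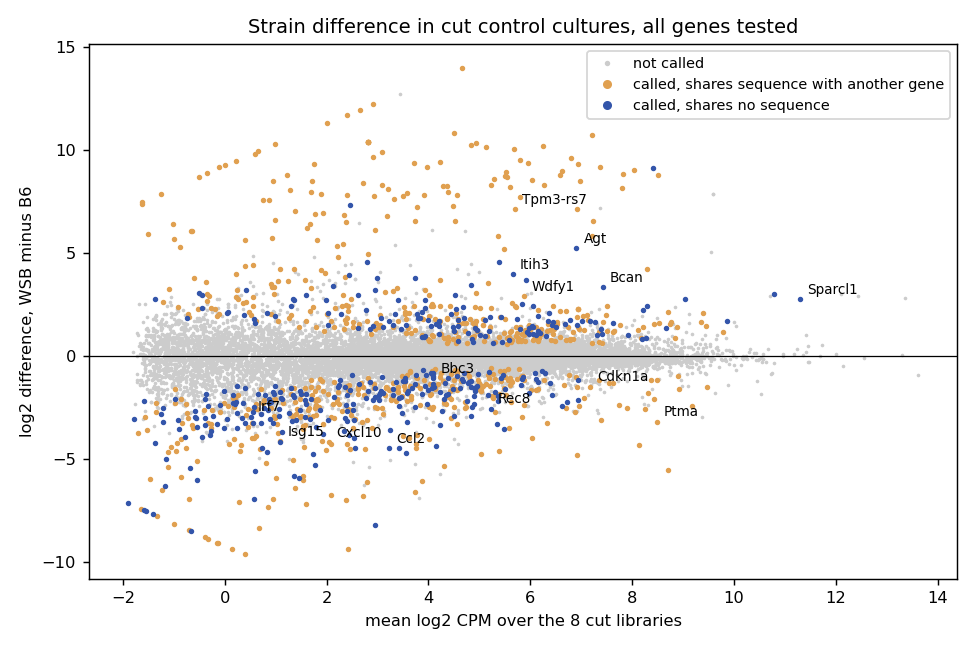
Log2 difference between WSB and B6 cut libraries against mean log2 CPM for all 16117 genes tested, each point 1 gene. Called genes that share sequence (orange) make up most of the called points above a difference of 5, and the labelled genes are among those described in the text.

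Among genes that share no sequence, the 15 with the smallest p in each direction kept their call in all 8 fits that left out 1 library. Agt (ENSMUSG00000031980, chr8:124556534-124569706 in GRCm38) encodes angiotensinogen, which astrocytes make in the brain. It read 6.51, 4.46, 5.59 and 7.79 CPM in B6 and 29.25, 158.95, 398.42 and 327.24 CPM in WSB (log2 difference 5.23 ± 0.74, adjusted p = 0.00478). Every WSB library was above every B6 library, with WSB replicate 1 lowest of its group. Bcan, the proteoglycan brevican of the perineuronal matrix, read 24.94 to 39.92 CPM in B6 and 93.26, 214.71, 430.26 and 487.61 CPM in WSB (3.33 ± 0.50, adjusted p = 0.00576). Sparcl1, the synapse-promoting protein hevin, read 466.53 to 839.01 CPM in B6 and 1962 to 6157 CPM in WSB (2.77 ± 0.42, adjusted p = 0.00632). For both genes the groups did not overlap.

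Itih3, a subunit of the hyaluronan-binding inter-alpha-trypsin inhibitors, read 10.49, 4.70, 4.43 and 4.26 CPM in B6 and 74.72, 86.67, 106.2 and 104.13 CPM in WSB. It gave the smallest p of the higher genes without shared sequence (3.96 ± 0.34, adjusted p = 0.000341). Clec3b, tetranectin, was 16.61 ± 4.85 CPM in B6 against 96.41 ± 14.8 CPM in WSB. Fgf1, a growth factor, was 11.12 ± 0.44 and 39.5 ± 8.01, Smoc1, a basement membrane protein, 72.93 ± 14.6 and 231.6 ± 68.5, and Adgrg1, the adhesion receptor GPR56, 67.53 ± 17.5 and 216.7 ± 23.8. C1ql1, a synaptic organiser of the C1q family, was 4.662 ± 1.65 and 51.22 ± 27.5. In these genes, as in Scrg1 (log2 difference 3.78 ± 0.47), the transcription factor Plag1 (2.71 ± 0.33), the tetraspanin gene Tspan33 (2.12 ± 0.21), Hemk1 (1.52 ± 0.24) and Cpxm1 (1.06 ± 0.14), every WSB library was above every B6 library.

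Of the 12 astrocyte markers, edgeR called 4 higher in WSB and none lower, against 3.02% and 3.47% of all genes, with a median log2 difference of 1.46. DESeq2 called 9 higher and 1 lower, and 11 of the 12 had an unadjusted edgeR p under 0.05. Besides Agt these were Slc1a3, the glutamate transporter GLAST, Fgfr3 and the glycolytic enzyme Aldoc. Slc1a3 read 344.32 to 427.76 CPM in B6 and 631.82, 1217, 1187.1 and 991.02 CPM in WSB (1.44 ± 0.25, adjusted p = 0.0108), and Fgfr3 was 35.69 ± 7.01 CPM in B6 against 94.92 ± 23.2 CPM in WSB (1.41 ± 0.23, adjusted p = 0.00895). Aldoc (1.37 ± 0.32, adjusted p = 0.037) lost its call without any of B6 replicates 1, 3 and 4 and WSB replicates 2, 3 and 4, with adjusted p up to 0.116. Gfap, the astrocyte filament protein, read 1115, 1336, 656.84 and 667.76 CPM in B6 and 156.44, 13582, 7320 and 9503 CPM in WSB, which overlapped and did not pass the test (3.02 ± 0.97, adjusted p = 0.105). Without WSB replicate 1, Gfap was called at a log2 difference of 3.50 (adjusted p = 0.00122), as were 10 of the 12 markers. WSB replicate 1, whose astrocyte sum lay within the B6 range, was the lowest WSB library for Agt, Bcan, Sparcl1, Scrg1 and C1ql1. The part of astrocyte RNA in these differences was not tested.

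None of 14 pan-neuronal markers, 26 cytoskeletal genes, 26 synaptic vesicle genes or 24 glutamate receptor genes was called with edgeR, against 6.49% of all genes. At an unadjusted p under 0.05 there were 1, 3, 0 and 2, and DESeq2 called 1, 2, 0 and 1. The median log2 difference of the pan-neuronal markers was -0.39, and all 14 were negative. Without WSB replicate 1, 2 of the 14 pan-neuronal markers and 2 of the 26 cytoskeletal genes were lower in WSB. Map2, a dendritic microtubule protein, was 1203 ± 355 CPM in B6 against 1130 ± 272 CPM in WSB (-0.09 ± 0.28, adjusted p = 0.9), and its sign changed when B6 replicate 2 or WSB replicate 2 was left out. Stmn2, a growth cone protein, was 964.8 ± 258 and 666.7 ± 397 CPM (-0.53 ± 0.39, adjusted p = 0.501), and Nefl, a neurofilament, 386.1 ± 16 and 197.2 ± 73.9 CPM (-0.97 ± 0.29, adjusted p = 0.0867). The groups did not overlap for Nefl. Without WSB replicate 1 it was called, at -1.09 (adjusted p = 0.0421).

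**Figure D3:**
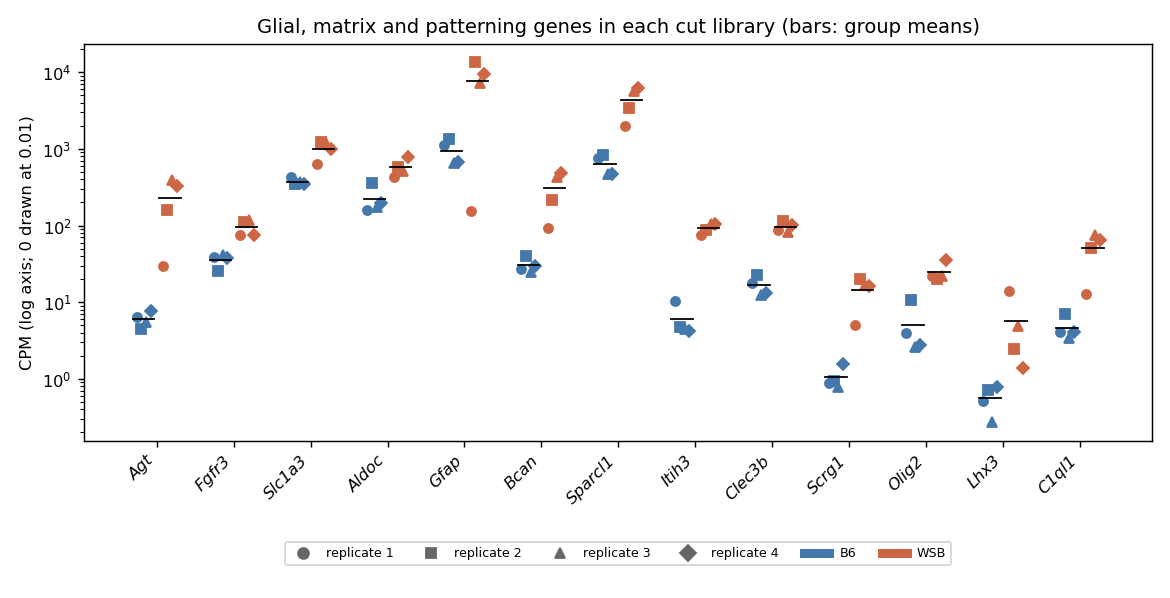
CPM of 13 genes in each cut library on a log axis, with a symbol for each replicate, a colour for each strain and bars at group means. WSB libraries lie above B6 libraries for all genes shown except Gfap, where WSB replicate 1 reads 156.44 CPM.

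Of 24 tested interferon-stimulated genes, 11 were lower in WSB and 1 was higher, against 3.47% and 3.02% of all genes, and the list's median log2 difference was -1.59. Of the 8 among them that share no sequence with other genes, 4 were lower and 1 was higher, against 3.62% and 1.97% of all such genes. Without WSB replicate 1 there were 12 lower and 1 higher, and without the later library block 12 and 0. The smallest counts were 5 lower without B6 replicate 3, 5 without B6 replicate 4 and 6 without WSB replicate 3. The list was chosen with earlier results of these data known.

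The promoters of Isg15, Ifit1 and Bst2 are printed because they hold a motif of the interferon response, the paired GAAA element that interferon regulatory factors bind. Each is the 150 bases before the start of transcription in RefSeq GRCm38.p6. Capitals mark matches to GAAANNGAAA on either strand, read on the printed strand as TTTCNNTTTC where the match lies on the other, and overlapping matches run together.
Isg15, chr4:156200819-156200968, minus strand: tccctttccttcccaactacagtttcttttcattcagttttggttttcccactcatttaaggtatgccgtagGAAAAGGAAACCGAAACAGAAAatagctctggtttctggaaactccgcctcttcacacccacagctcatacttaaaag
Ifit1, chr19:34640739-34640888, plus strand: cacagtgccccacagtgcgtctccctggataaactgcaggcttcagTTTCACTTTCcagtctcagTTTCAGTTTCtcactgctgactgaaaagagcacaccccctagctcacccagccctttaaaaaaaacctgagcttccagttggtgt
Bst2, chr8:71537473-71537622, minus strand: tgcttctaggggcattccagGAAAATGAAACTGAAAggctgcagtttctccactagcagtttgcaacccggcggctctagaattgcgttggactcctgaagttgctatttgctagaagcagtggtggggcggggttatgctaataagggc

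The window of 300 bases in RefSeq (250 before and 50 after the start) held the motif in 3.44% of 32851 promoters and for 3.99% of genes. Promoters of 17 of the 26 listed genes were found. The motif lay in 5 of the 9 called members found and in 6 of the 8 others found. A match is a description of the sequence and does not show binding.

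Isg15 (ENSMUSG00000035692, chr4:156199424-156200818) encodes a ubiquitin-like protein induced by interferon. It read 1.48, 2.28, 5.55 and 6.08 CPM in B6 and 0.09, 0.36, 0.18 and 0.20 CPM in WSB (log2 difference -4.12 ± 0.64, adjusted p = 0.00688). Irf7, the transcription factor that amplifies the interferon response, read 1.56, 1.94, 2.80 and 3.27 CPM in B6 and 0.40, 0.39, 0.31 and 0.10 CPM in WSB (-2.94 ± 0.48, adjusted p = 0.00895). Oasl2, of the 2'-5'-oligoadenylate synthetase family, read 4.54, 8.72, 13.67 and 13.99 CPM in B6 and 1.02, 1.42, 0.53 and 2.00 CPM in WSB (-3.04 ± 0.51, adjusted p = 0.00947). For these genes every WSB library lay below every B6 library. B6 replicates 3 and 4 were the highest libraries for all 3.

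Xaf1, a pro-apoptotic interferon target, was 5.867 ± 3 CPM in B6 against 0.8026 ± 0.243 CPM in WSB (-2.86 ± 0.48, adjusted p = 0.00955). Ifit1, which binds foreign RNA, was 7.686 ± 3.75 and 0.9533 ± 0.419 CPM (-3.02 ± 0.53, adjusted p = 0.012). These 5 genes kept their call without any 1 library. Rtp4 was 4.132 ± 2.04 and 0.8822 ± 0.201 CPM (-2.23 ± 0.44, adjusted p = 0.0189), and lost its call without B6 replicate 3 (0.0637), B6 replicate 4 (0.0631) or WSB replicate 3 (0.0644). Bst2, or tetherin, which was singled out after its values were seen, read 5.26, 5.42, 11.15 and 13.55 CPM in B6 and 0.43, 1.67, 1.58 and 1.90 CPM in WSB (-2.67 ± 0.53, adjusted p = 0.0197), and lost its call without B6 replicate 3 (adjusted p = 0.0613), B6 replicate 4 (0.0636) or WSB replicate 3 (0.0618). The RNA sensors Ddx58 and Ifih1 and the genes Parp14 and Zbp1 were the other lower members. Each lost its call without B6 replicate 3 or 4 (adjusted p up to 0.121, for Ifih1). Ddx58 and Ifih1 also lost it without B6 replicate 1 or 2, and Ddx58, Ifih1 and Zbp1 without WSB replicate 3.

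Ifit2, a neighbour of Ifit1 on chromosome 19, went the other way. It read 8.04, 6.50, 11.23 and 9.54 CPM in B6 and 11.76, 30.42, 34.03 and 27.2 CPM in WSB (1.55 ± 0.34, adjusted p = 0.0288), and stayed called only without WSB replicate 1 among the fits that left out 1 library (adjusted p 0.0588 to 0.0845 in the other 7).

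Of 17 chemokine genes tested, 4 were lower and 1, Ccl25, was higher, against the same 3.47% and 3.02% of all genes, with a median log2 difference of -0.59. Ccl28 read 6.74, 5.04, 5.05 and 4.72 CPM in B6 and 0.28, 0.33, 0.26 and 0.10 CPM in WSB (-4.39 ± 0.40, adjusted p = 0.000412). Ccl2 (ENSMUSG00000035385, chr11:82035571-82037453), which draws monocytes, read 8.25, 25.2, 15.69 and 21.01 CPM in B6 and 0.25, 1.54, 0.66 and 0.55 CPM in WSB (-4.48 ± 0.60, adjusted p = 0.0034). Neither pair of groups overlapped, and both genes kept their call without any 1 library. Cxcl10, an interferon-induced chemokine, was 7.565 ± 1.87 CPM in B6 against 0.3998 ± 0.401 CPM in WSB (-4.18 ± 0.83, adjusted p = 0.0196), and was not called without B6 replicate 3 (0.0558) or B6 replicate 4 (0.0624). Without B6 replicate 3 or 4 the lower chemokines numbered 2.

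The complement genes called, 4 lower of 13 tested against 3.47% of all genes, were C1s1, C1ra, C2 and C4b. Between 34.565% and 50.819% of each is shared with other genes, so their counts are uncertain. Of all genes that share sequence, 3.4% were called lower and 3.62% higher. None of the 4 tested complement genes that share no sequence was called. C1s1, a protease that starts the classical pathway, was 32.17 ± 6.54 CPM in B6 against 6.532 ± 3.77 CPM in WSB (-2.29 ± 0.39, adjusted p = 0.0108). The complement count was 1 without B6 replicate 1, 3 or 4, or without WSB replicate 3 or 4, and 3 without WSB replicate 1. In the class I antigen presentation list H2-D1 and H2-M3 were lower and H2-T23 higher, of 16 tested, against 3.47% and 3.02% of all genes. None of the 3 was called without B6 replicate 1. Shared sequence makes up 12.775% of H2-D1, 0.576% of H2-M3 and 14.489% of H2-T23, so these counts are uncertain as well, and neither of the 2 tested class I genes without shared sequence was called.

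Marker levels are set beside these immune genes. The 10 microglia and macrophage markers summed to 7.6 to 11.3 CPM in B6 and 1.4 to 6.3 CPM in WSB, with Tyrobp, Trem2, Ptprc and Cx3cr1 at or below 0.15 CPM in every cut library. The sums of 12 fibroblast markers, 3229 to 8445 CPM in B6 and 243.1 to 3838 CPM in WSB, overlapped between the strains. Prrx1, a fibroblast transcription factor, was 39.97 ± 9.05 and 16 ± 7.01 CPM (-1.32 ± 0.34, adjusted p = 0.0541), and Col1a1, a collagen, 1346 ± 826 and 510.5 ± 431 CPM (-1.39 ± 0.92, adjusted p = 0.446). Epithelial markers summed to 56.0, 19.9, 156.2 and 157.6 CPM in B6 and 4.0, 5.3, 5.9 and 37.5 CPM in WSB, and 2 of the 6 tested, Epcam and Cldn4, were lower (median log2 difference -3.09). Of all genes 3.47% were called lower. Epcam read at most 5.67 CPM and Cldn4 at most 2.99 CPM. Both lost their call without B6 replicate 3 or 4 or WSB replicate 2 or 3 (adjusted p up to 0.0955 and 0.121). The epithelial count was 0 in each of these fits and 4 without WSB replicate 4. Endothelial markers summed to 144.2, 34.9, 220.6 and 187.0 CPM in B6 and 15.5, 59.0, 25.2 and 43.6 CPM in WSB, and 1 of 7, Tek, was lower (median -1.02). Tek lost its call without B6 replicate 3 or 4 or WSB replicate 2, 3 or 4 (adjusted p up to 0.106). The smooth muscle and pericyte sums were 883.2, 293.8, 1708.2 and 1689.0 CPM in B6 and 140.9, 923.1, 218.7 and 253.1 CPM in WSB, with none of 9 called by edgeR or DESeq2 and 1 at an unadjusted p under 0.05. The groups overlapped in all 3 sums, and B6 replicates 3 and 4 were the highest libraries in each, as they were for Isg15, Irf7 and Oasl2. Ccl28 was instead highest in B6 replicate 1, and Ccl2 and the fibroblast sum were highest in B6 replicate 2. The part of these cells in the immune gene differences was not tested.

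Targets of p53, the transcription factor of DNA damage and cell death, were lower in WSB in 6 of 21 tested and higher in none, against 3.47% and 3.02% of all genes. The list's median log2 difference was -0.81, and of its 12 genes without shared sequence 4 were lower. Bbc3 (ENSMUSG00000002083, chr7:16308393-16318205) encodes PUMA, a death protein that injured neurons also induce through JNK. It read 22.16, 20.57, 23.27 and 25.07 CPM in B6 and 11.15, 9.91, 10.38 and 11.6 CPM in WSB (-1.08 ± 0.16, adjusted p = 0.00553). Cdkn1a, the cell cycle inhibitor p21, read 174.01, 158.09, 248.79 and 260.34 CPM in B6 and 86.92, 95.43, 56.84 and 60.99 CPM in WSB (-1.49 ± 0.25, adjusted p = 0.0105). Phlda3, an inhibitor of AKT, was 80.66 ± 25.9 and 29.94 ± 5.14 CPM (-1.43 ± 0.26, adjusted p = 0.0139). In all 3 genes the groups did not overlap and the call held without any 1 library. B6 replicates 3 and 4, the highest in epithelial, endothelial and smooth muscle markers, were also the highest for all 3, and the part of those cells in the p53 target differences was not tested.

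The death receptor gene Tnfrsf10b (-2.23 ± 0.43), Gtse1 (-1.74 ± 0.37) and Perp (-2.19 ± 0.55) were the other lower p53 targets, and each lost its call without B6 replicate 3, B6 replicate 4 or WSB replicate 3. Trp53 itself was 45.04 ± 1.62 CPM in B6 against 27.58 ± 6.96 CPM in WSB (-0.71 ± 0.19, adjusted p = 0.0646). Without B6 replicate 3 or 4 or WSB replicate 3 the list had 3 lower members, without B6 replicate 2 it had 9, without WSB replicate 1 it had 5 and without the later block 4. None of 27 cell cycle genes was called with edgeR (6 at an unadjusted p under 0.05, 1 with DESeq2).

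**Figure D4:**
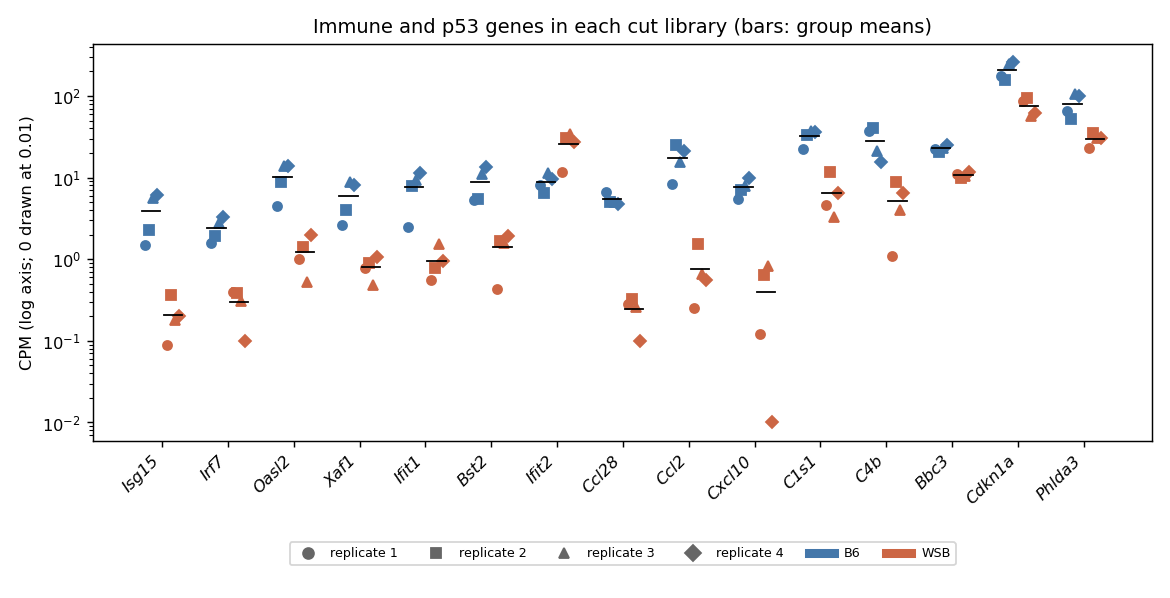
CPM of 15 immune and p53 target genes in each cut library on a log axis, a value of 0 drawn at 0.01, with a symbol for each replicate and bars at group means. Every gene shown except Ifit2 has all 4 WSB libraries below all 4 B6 libraries.

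Of 18 transcription factors listed for regeneration, 1 was called higher in WSB and 1, Klf4, lower (-2.48 ± 0.59, adjusted p = 0.0404). Of all genes 3.02% were called higher and 3.47% lower. The list was not split by whether a factor favours or limits growth. Klf4 was called in 1 of the 8 fits that left out 1 library. Jun read 103.94 to 142.36 CPM in B6 and 71.68 to 213.66 CPM in WSB (0.22 ± 0.32, adjusted p = 0.777), and Atf3 4.72 to 25.94 and 2.25 to 24.56 CPM (-0.37 ± 0.78, adjusted p = 0.847). Sox11 (-0.05 ± 0.41) and Stat3 (-0.11 ± 0.23) did not pass either, with adjusted p = 0.966 and 0.847. All 4 of these genes changed sign when single libraries were left out, and for each the groups overlapped. Gap43, the growth cone protein, was 688.1 ± 172 and 579.5 ± 324 CPM (-0.25 ± 0.37, adjusted p = 0.78).

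Among effectors of regrowth, 1 gene of 23 tested was called, near the 3.47% of all genes called lower. That gene was Arg1, the arginase of polyamine synthesis. It read 1.61, 1.5, 1.32 and 1.11 CPM in B6 and 0.25, 0.15, 0.13 and 0.20 CPM in WSB (-2.91 ± 0.39, adjusted p = 0.00318), without overlap, and kept its call without any 1 library. The list had 2 lower members without WSB replicate 1 or 2. In the gp130 cytokine group 1 of 14 tested genes was lower and 1 higher, against 3.47% and 3.02% of all genes. The ligand Lif was lower (-2.64 ± 0.53, adjusted p = 0.0217) and the receptor Cntfr higher (1.13 ± 0.23, adjusted p = 0.0227). Without B6 replicate 3 or 4 or WSB replicate 3 neither was called, and without B6 replicate 1 Cntfr was not. Bbc3 was the 1 called gene of 25 in the DLK and JNK list, also near the share of all genes called lower. The neurotrophin Bdnf was lower at 10.11 ± 3.46 CPM against 25.85 ± 5.43 (-1.35 ± 0.28, adjusted p = 0.0234), but was not called without B6 replicate 1, 3 or 4 or WSB replicate 3 or 4 (adjusted p up to 0.0693).

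Of 25 immediate early genes, edgeR called 3 lower (Bdnf, Arc and Ier3) and none higher, against 3.47% and 3.02% of all genes, with a median log2 difference of -1.23. DESeq2 called 12 lower and none higher, and 13 of the 25 had an unadjusted edgeR p under 0.05. None was called without B6 replicate 1, 3 or 4 or without WSB replicate 3, 1 was without the later block, and 6 were without B6 replicate 2 or WSB replicate 2. Egr1 read 44.41 to 148.55 CPM in B6 and 14.58 to 50.24 CPM in WSB (-1.95 ± 0.49, adjusted p = 0.0503), and Fos 25.07 to 62.61 and 8.74 to 45.59 CPM (-0.72 ± 0.48, adjusted p = 0.449). Cth, Pycr1 and Gdf15 of 24 ATF4 stress genes were lower in WSB, and that count was 0 without B6 replicate 3 or 4, 1 without B6 replicate 1 or 2 or WSB replicate 2, 3 or 4, and 4 without WSB replicate 1, where 2 others were higher.

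The calls in the guidance and matrix lists are given beside the 3.02% of all genes called higher and 3.47% called lower. In the semaphorin list Plxnb1, a semaphorin receptor, and Sema6d were higher and none lower, of 31 tested, and both were called only without WSB replicate 1 among the fits that left out 1 library (adjusted p up to 0.125 for Sema6d and 0.122 for Plxnb1 in the other 7). Among 37 ephrin, slit and netrin genes, Ntng2 (1.70 ± 0.22) and Epha5 (0.81 ± 0.20) were higher and Efnb2 (-1.13 ± 0.21) and Slit3 (-1.95 ± 0.42) lower. Of these 4, Ntng2 kept its call without any 1 library, Efnb2 lost it without B6 replicate 3 (0.0511), and Epha5 and Slit3 lost it without B6 replicate 3 or 4 or WSB replicate 2. Neither Ntng2 nor Epha5 was among the 21 tested genes of the list without shared sequence. In the basement membrane list of 30 genes 4 were higher (Lama3, Agrn, Itga2 and Itga7) and 2 lower, among them Nid1. The number of higher members in that list was 0 without B6 replicate 1, 3 or 4 or WSB replicate 2 or 3, 1 without B6 replicate 2 or WSB replicate 4, and 5 without WSB replicate 1. DESeq2 called 5 of the 30 higher and 9 lower. Bcan was the 1 call of 25 genes of myelin inhibitors, proteoglycans and their receptors.

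The counts for patterning and transmitter genes also stand beside 3.02% of all genes called higher and 3.47% called lower. Among 26 patterning genes of the hindbrain and spinal cord tested, 3 were higher in WSB, among them Lhx3 (3.31 ± 0.75) and Dbx2 (2.70 ± 0.66), and 1 was lower, Phox2a (-3.02 ± 0.65), of noradrenergic and visceral motor neurons. Each of these named genes lost its call when any 1 of the 4 B6 libraries or WSB replicate 3 was left out. Gabra2, a GABA receptor subunit, read 10.05 to 14.3 CPM in B6 and 77.46, 46.93, 83.29 and 36.64 CPM in WSB (2.33 ± 0.29, adjusted p = 0.00206), without overlap and with the call kept. Gabra2 was not among the 10 tested genes of its list without shared sequence. Of 23 transmitter genes 2 were higher, among them the glycine transporter gene Slc6a9 (1.41 ± 0.29), and 2 lower, Tac1 (-2.18 ± 0.47) and Dbh (-3.21 ± 0.71), and all 4 lost their call without B6 replicate 1, 3 or 4.

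Of the genes lower in WSB that share no sequence, Rec8 (ENSMUSG00000002324, chr14:55618037-55625395), a meiotic cohesin subunit, had the smallest p. It read 72.69, 46.66, 70.03 and 60.74 CPM in B6 and 10.56, 10.22, 9.63 and 12.4 CPM in WSB (-2.55 ± 0.19, adjusted p = 0.000138). Atp5e, a subunit of the mitochondrial ATP synthase, was 81.11 ± 23.2 CPM in B6 against 6.925 ± 2.51 CPM in WSB (-3.55 ± 0.33, adjusted p = 0.00047). Pop4, a subunit of ribonuclease P, was 41.75 ± 3 and 14.58 ± 3.11 CPM, and Gmppa, a regulator of GDP-mannose synthesis, 24.75 ± 1.9 and 8.38 ± 1.61 CPM. The tyrosine kinases Tec (-2.41 ± 0.33) and Frk (-3.08 ± 0.38), the cadherin Cdh26 (-4.47 ± 0.53), the calpain Capn11 (-4.74 ± 0.66) and the transcription factors Tbx15 (-1.49 ± 0.22) and Sohlh2 (-3.17 ± 0.48) were lower by the stated log2 differences. Htatip2 (-3.45 ± 0.39) and Crym (-2.11 ± 0.32), which binds thyroid hormone, were lower as well, as were Ccl2 and Bbc3. Dyrk1a, the target of ID-8, was 109.7 ± 17.1 CPM in B6 against 104.2 ± 16.7 CPM in WSB (-0.07 ± 0.18, adjusted p = 0.875).

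Of 16092 genes tested in uncut controls, WSB exceeded B6 at 590 (3.67%) and was below it at 756 (4.7%), or 8.36% in all, and at 427 and 846 when counts were scaled by library totals alone. The counts were 1182 and 873 without uncut WSB replicate 1, 989 and 1066 without uncut WSB replicate 4, and between 287 and 309 higher and 356 and 437 lower without uncut B6 replicate 1, 3 or 4 or uncut WSB replicate 2 or 3. Of the genes called in cut cultures, 78.5% were also called in uncut cultures, and of those called in uncut cultures 61% were called in cut, all 821 shared genes in the same direction. Cut and uncut libraries come from the same culture sets, so this overlap is not independent evidence. Isg15 in uncut cultures was 2.395 ± 1.41 CPM in B6 against 0.172 ± 0.117 CPM in WSB (-3.87 ± 0.65, adjusted p = 0.00834). The interferon list had 15 lower and 0 higher members of 24, and the astrocyte list 4 higher and 0 lower of 12.

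A difference between cut and uncut in the strain difference was tested with an interaction term over all 16 control libraries. It called 0 of 16932 genes (0%) with edgeR, with 74 at an unadjusted p under 0.05, and 0 with DESeq2 (94 unadjusted). Both unadjusted counts are below the share of 0.05 that chance alone would give. These fits leave out the pairing of cut and uncut libraries by culture set, so 0 calls do not show that differences are absent. With the culture set as a block, which pairs cut with uncut libraries, 0 genes were more positive and 2 more negative (0.0118%), with 664 at an unadjusted p under 0.05. That count of 664 is also below the share of 0.05. The 2 genes were Gm26825 and Atp6v0c-ps2, which share 93.323% and 90.144% of their sequence with other genes. In uncut B6 libraries both were at 0, in cut B6 libraries Gm26825 read 2.86, 0.27, 0.00 and 0.65 CPM and Atp6v0c-ps2 1.99, 0.10, 0.00 and 0.07 CPM, and in WSB libraries of either kind both were at or above 136.83 CPM. Bbc3, for example, was called in cut cultures but not in uncut ones (-0.72 ± 0.33, adjusted p = 0.223). In the fit without the block the difference between these was -0.37 ± 0.36 (adjusted p = 1 with edgeR). The strain difference of Bbc3 was thus not shown to depend on the cut. In uncut WSB cultures Bbc3 read 8.84, 9.41, 8.39 and 22.63 CPM, and replicate 4, of the later library block, was alone above the B6 range of 17.97 to 21.24 CPM. Arc and Ier3, likewise called only in cut cultures, had differences between cut and uncut of -0.56 ± 0.53 and -1.38 ± 0.74 (adjusted p = 1 for each), also without the block. For both, uncut WSB replicate 4 was again the highest WSB library, at 11.29 and 14.14 CPM.

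**Figure D5:**
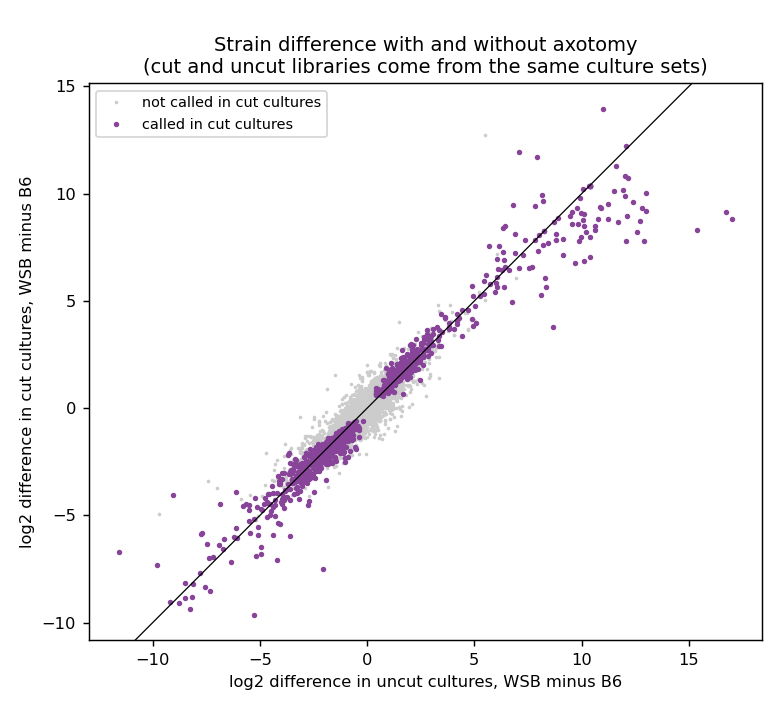
Log2 difference between WSB and B6 in cut libraries against that in uncut libraries, each point 1 gene, with the line of equality. Called genes (purple) run along the line in both directions, and the points farthest to the right include Gm26825 and Atp6v0c-ps2, which were at 0 in uncut B6 libraries.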

How the data were processed

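RNA of whole cultures was sequenced from 4 B6 and 4 WSB cut control libraries and their uncut counterparts. The values the authors deposited are expected counts per gene without scaling, of which 9.318% were not whole. Bowtie2, RSEM, featureCounts and limma are named, with build GRCm38, per the submitters' processing notes. Their settings are not given in the sources used here. Repeat runs of 1 library were summed and rounded. 2 runs of 1 library differed by a chi-square per degree of freedom of 2.3 to 2.33, and replicate libraries by 15.66 to 807.66. Genes without a symbol (1317 of 38924) held 0.2424% of the counts at the axon stage.

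Only the 2 groups compared entered each strain fit, since libraries of 1 culture set deviate together across treatments and every library within a group is of another set. Counts were filtered with filterByExpr, scaled with TMM factors and tested with edgeR 4.0.16 in R 4.3.3, and a gene was called at a Benjamini-Hochberg adjusted p under 0.05. Adjusted p-values are edgeR's unless another tool is named. P-values measure the spread between culture sets, which may share an embryonic stem cell line. B6 replicates 3 and 4 were much alike, so the spread in B6 may be understated. The interaction was also fitted with the culture set as a block, as the deviations of cut and uncut libraries of 1 set from their group means correlated at 0.43 to 0.824. Errors after ± are standard deviations over 4 libraries for levels in CPM and standard errors for log2 differences. Sharing was counted in 50-base stretches of GENCODE transcripts, and levels were summed over partners with at least 200 shared stretches. Fitting was tested on simulated data: in the cut comparison 72% of genes with a 4-fold change and 10% of those with a 2-fold change were recovered, with 3 false calls among 16117 genes. The interaction test recovered 57% and 10%, with 4 false calls among 16932. Simulated libraries were drawn independently, without culture set effects. These rates therefore do not describe the interaction test on real libraries, where cut and uncut cultures of a set deviate together. Reads were amplified by PCR with no molecular identifiers named, so that a count is a number of reads and not of molecules.

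Members, gene lists and the rule for named genes were chosen with earlier results of these data known. Called genes could be named from a mean log2 level of 1 and a 2-fold difference upwards, if their symbol was no placeholder. Named were the 15 of smallest p in each direction without shared sequence, 5 with it, up to 6 members a list, and Dyrk1a. Genes that did not pass the test were named for their role. Alternatives were DESeq2 1.42.0, RLE factors, library totals, no filter, first runs, the earlier library block, genes without shared sequence, each library left out, all axon groups, and limma 3.58.1 voom with the culture set as a random effect. Some genes the rule names are not reported here.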

Additional observations from a re-analysis of the deposited data

Results flagged for a closer look

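Within groups of 4 cut libraries, 13 of the 84 groups of levels examined held a highest or lowest library whose gap to the nearest other exceeded Dixon's critical share of the group's range, where chance gives about 1 in 20. Many groups share a library and are not independent. In WSB replicate 1, the library that stood apart, the pan-neuronal sum was 10538 CPM against a median of 4575 in the others, the choroid plexus sum 516.6 against 188.7 CPM, and the pluripotent sum 24.4 against 8.7 CPM. Tspan33 was lowest in the same library at 16.16 CPM against 25.89 CPM.

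WSB replicate 4, of the later library block, was highest in oligodendrocyte lineage markers at 1182.1 against 306.6 CPM, in Schwann and neural crest markers at 296.1 against 68.6 CPM, in epithelial markers at 37.5 against 5.3 CPM, and in Capn11 at 0.6 against 0.13 CPM. Mbp, a myelin protein, read 336.79 CPM there and 43.78 to 66.87 CPM in the other WSB libraries. WSB replicate 2 was highest in smooth muscle and pericyte markers, at 923.1 against 218.7 CPM, and WSB replicate 3 lowest in Crym, at 1.58 against 3.23 CPM. In B6 replicate 1 the oligodendrocyte lineage sum was lowest at 182.2 against 224.3 CPM, Plag1 lowest at 0.54 against 0.7 CPM, and Itih3 highest at 10.49 against 4.43 CPM.

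With the culture set as a block, the strain difference in cut cultures minus that in uncut cultures was -8.63 for Gm26825 (adjusted p = 0.00131) and -8.16 for Atp6v0c-ps2 (adjusted p = 0.00791) on the log2 scale. The fitted size depends on the prior count, since uncut B6 libraries were at 0. Among cut B6 libraries, replicate 1 was highest for both genes.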

How the results depend on the processing

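Cut cultures gave 486 higher and 560 lower genes. These were 1224 and 1170 with DESeq2, 90 and 156 over genes that share no sequence, 1351 and 1590 with all axon groups, and 743 and 1118 with limma-voom and the set as a random effect. Leaving out each library gave 229 to 1257 higher and 241 to 731 lower. RLE factors, library totals, no filter, first runs and the earlier library block kept both counts within 1.5 times. Uncut cultures gave 590 and 756. These were 1349 and 1410 with DESeq2, 1029 and 1368 with all axon groups, and 989 higher without the later block. With 1 library left out they were 287 to 1182 higher and 356 to 1066 lower. A fit of only the 6013 genes that share no sequence called 157 and 220. The cause was not tested.

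The interaction called 0 and 0 genes in all fits without the block. With the culture set as replicate block it called 0 and 2, without the later library block 0 and 3, and without WSB set I 1 and 2. The latter 2 fits, and the pairing below, were chosen after seeing the data. Names 2 and 3 occur in both strains, and the pairs correlated at 0.355 and 0.064 in cut and 0.236 and 0.075 in uncut cultures. Libraries of unlike name were not compared, so these values do not settle whether the names pair libraries. A replicate block of those names (2 libraries a side) gave 2062 higher and 1807 lower genes.

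None of the followed called genes changed direction under any alternative. Uncalled genes changed sign as follows. Map2 was 0.115, 0.012 and 0.061 without B6 replicate 2, without WSB replicate 2 and with the replicate block of names. Atf3 was 0.039 without B6 replicate 4, 0.064 without WSB replicate 1 and 0.037 with voom. Jun was -0.057 without the later block (WSB replicate 4) and -0.146 with all axon groups. Sox11 was 0.006 with DESeq2, 0.005 with RLE factors, 0.000 without a filter, and 0.06, 0.163 and 0.188 without B6 replicate 1, WSB replicate 2 and WSB replicate 3. Stat3 was 0.115 without WSB replicate 1 and 0.058 with the block of names. Dyrk1a was 0.012 without B6 replicate 2. With 1 library left out the range was -0.202 to 0.115 for Map2, -1.062 to 0.064 for Atf3, -0.057 to 0.516 for Jun, -0.431 to 0.188 for Sox11, -0.232 to 0.115 for Stat3 and -0.139 to 0.012 for Dyrk1a. Genes at a few CPM rest on few counts in the shallower libraries.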
